A study of Mus musculus with 44 samples.

Results

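On a high-fat diet deficient in choline (CD-HFD), the livers of 4 mice that lack Ripk3 (Ripk3KO, genotype Ripk3-/-) were compared with those of 6 wild-type (WT) mice. These 10 libraries, chosen by genotype and diet from the labels, are 10 of the 44 RNA sequencing libraries of the series. Feeding began at 2 months of age and lasted 6 months, so that both groups had eaten the same diet for the same time. The series also holds WT and Ripk3KO mice on a control chow (6 and 6) and on a low-fat diet that also lacks choline (CD-LFD, 6 and 3), and mice that lack Mlkl on all 3 diets. The study asked whether blocking necroptosis changes inflammation, tumour formation and gene expression in the liver. The labels give neither the strain nor the sex, and they do not say how the knockout was made or whether WT mice were littermates. The Ripk3KO libraries carry the replicate numbers 1, 2, 3 and 5.

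RIPK3 is a kinase that, once activated through death receptors or nucleic acid sensors, phosphorylates MLKL, which then disrupts the plasma membrane. This lytic death, necroptosis, releases cell contents that provoke inflammation. Choline is needed to make phosphatidylcholine, the lipid that coats the very-low-density lipoproteins by which the liver exports fat, so a diet without it leads to fat accumulation, and with high fat to inflammation, fibrosis and tumours. Cells under such load switch on several adaptive programmes. Heat shock factor 1 raises cytosolic chaperones, the unfolded protein and integrated stress responses raise ER chaperones and the factors ATF4 and CHOP, SREBP2 raises sterol synthesis, and PPARα raises fatty acid oxidation.

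Total counts of the 10 libraries ranged from 4854689 to 11070338, and genes with a count from 20615 to 22568. The tissue label was checked against hepatocyte genes. Albumin (Alb) lay between 39260 and 63490 CPM (counts scaled to library size) in WT and between 42130 and 64170 in Ripk3KO, and the 10 hepatocyte markers together summed to 61250 to 97480 CPM in WT and 68710 to 95910 in Ripk3KO. Markers of adrenal and kidney were at 0 in all 10 libraries. The scaling also uses TMM, a factor per library that corrects for composition. WT replicate 3 stood apart by its clock genes, with a log2 ratio of Arntl to Dbp of -2.10 against a group median of -5.82, and the 4 Ripk3KO libraries ran from -6.11 to -5.46. Ripk3KO replicate 1 stood apart by Lars2 (10770 CPM) and Mir6236 (1233 CPM), and values without both libraries are given where they bear on a result.

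Ripk3 (ENSMUSG00000022221), the targeted gene, ran from 2.34 through a median of 2.61 to 4.44 CPM in the WT livers (20 to 43 counts). It was 0.167, 0, 0 and 0.0853 CPM in the Ripk3KO livers, 2 counts in all. Every knockout library on CD-HFD thus fitted its label, and Ripk3 was at least 6.17-fold lower than in WT, a bound set by the floor of 3 counts per library. The fitted log2 difference was -5.53 (SE 0.76; adjusted p 2.42e-05, edgeR quasi-likelihood test, adjusted by Benjamini-Hochberg over all genes tested). Mlkl (ENSMUSG00000012519), the membrane executor, was 14.3 to 17.7 CPM in WT and 13.98, 13.9, 20.5 and 14.5 CPM in Ripk3KO. Its log2 difference was -0.03 (95% interval -0.52 to 0.45, adjusted p 0.983). In 2 libraries of other groups the targeted gene went against the label. The library labelled Ripk3KO control replicate 5 held Ripk3 at 1.26 CPM (9 counts), against 0 to 0.326 CPM in the other 5 of its group and 0.511 to 4.89 CPM in WT on that diet. The library labelled MlklKO CD-HFD replicate 1 held Mlkl at 12.5 CPM, against 4.83 and 2.80 CPM in the other 2. Both libraries were kept under their labels, and only some results that use them are also given without them.

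The edgeR quasi-likelihood test called 56 of 14862 genes (0.377%), meaning an adjusted p under 0.05. Of these, 25 (0.168%) were lower and 31 (0.209%) higher in Ripk3KO. Genes that fell included chaperones (Hspa1b, Hspa1a, Dnajb1), stress-response factors (Atf4, Ddit3) and the hormone Fgf21, and genes that rose included the enzymes Gpcpd1 and Pnpla2 and the carrier Slc22a5. Without a correction 1297 genes were under 0.05. The 4 Ripk3KO and 6 WT values did not overlap at 796 genes (5.36%). Leaving out 1 library at a time gave 15 (without Ripk3KO replicate 5) to 50 calls (without WT replicate 4), and leaving out both libraries that stood apart gave 9, among them Ripk3, Cebpe, Psmb5, Gpcpd1 and Scara5. Fitting only these 10 libraries called 252 of 13886 genes (1.81%), and 49 of the 56 were among them. DESeq2 called 126 genes, limma-voom with sample weights 1162, and the fit of these libraries without both that stood apart 675, so the number of genes depended on the setting.

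**Figure D1:**
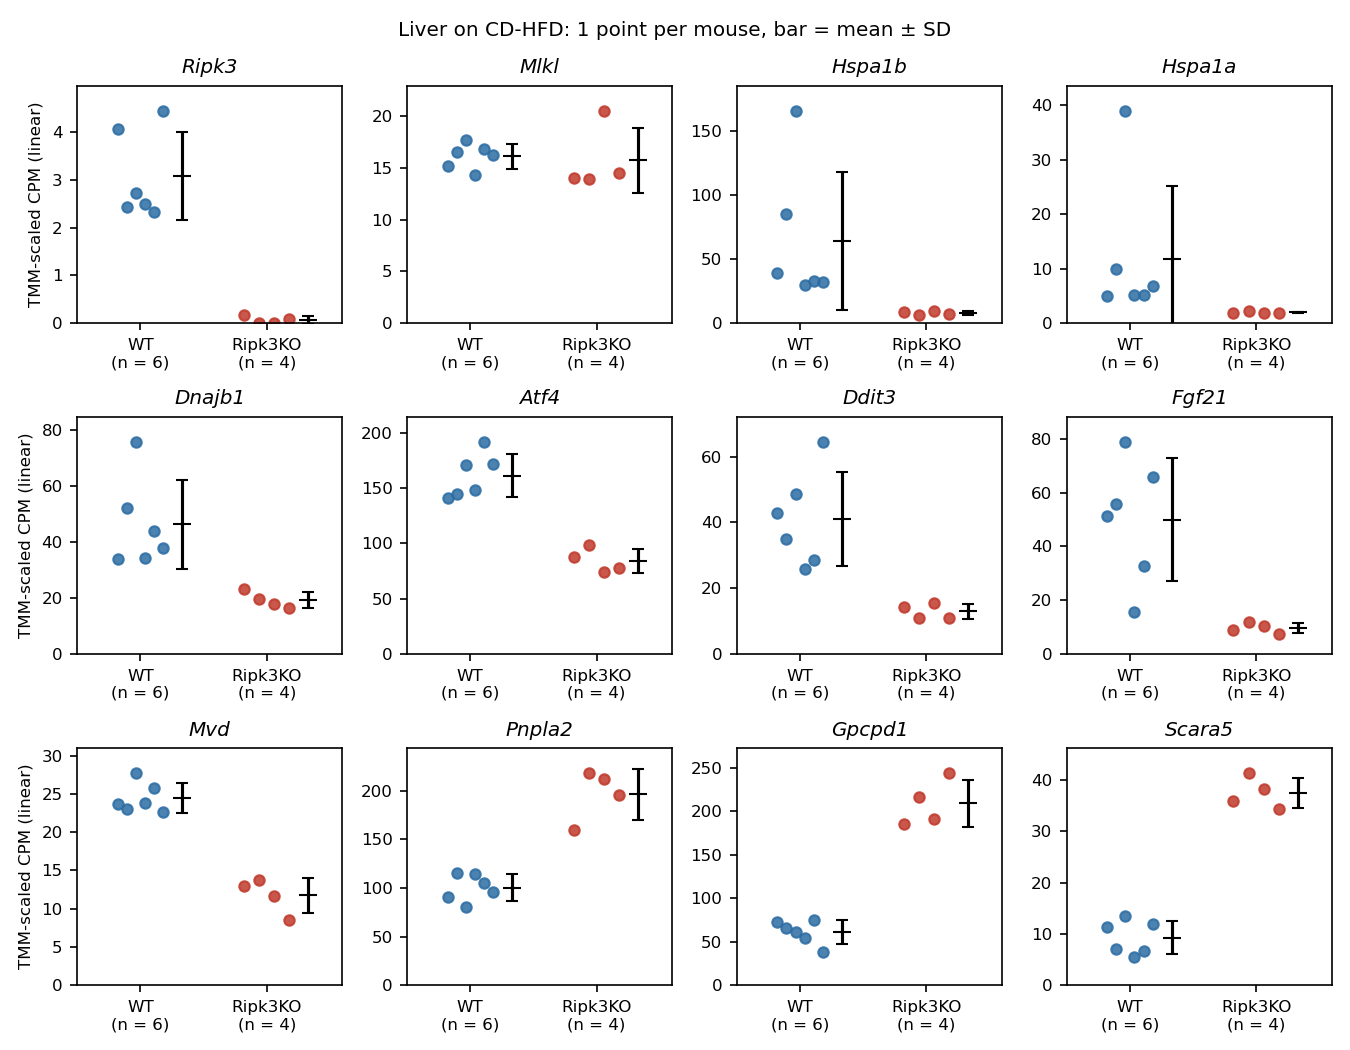
Expression of 12 genes in each mouse on CD-HFD, as TMM-scaled CPM on linear axes that start at 0. Each point is 1 mouse (6 WT, 4 Ripk3KO), and bars are the mean and SD. Ripk3 is near 0 in Ripk3KO, Mlkl overlaps between genotypes, the 7 genes from Hspa1b to Mvd are lower in every Ripk3KO mouse than in any WT mouse, and Pnpla2, Gpcpd1 and Scara5 are higher. The highest WT point of Hspa1b and Hspa1a is replicate 3, and bars that reach below 0 are cut there.

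Of 21 heat shock chaperone genes tested, 3 fell (Hspa1b, Hspa1a and Dnajb1) and none rose, against 0.168% of all genes called lower. In this list 19 had a fitted value below WT, and the median log2 difference was -0.50 against 0.00476 over all genes tested. Hspa1a (ENSMUSG00000091971) and Hspa1b (ENSMUSG00000090877) encode the stress-inducible HSP70, and are near-identical copies, so how reads were divided between them is uncertain. The 250 bases before each gene's start (RefSeq, GRCm38.p6) are shown because they show how alike the copies are and where heat shock factor could be sought. Both lie on the minus strand, Hspa1a at chr17:34972157-34972406 and Hspa1b at chr17:34959239-34959488, and capitals mark GAANNTTC, a pair of the 5-base units that heat shock factor binds.
Hspa1a: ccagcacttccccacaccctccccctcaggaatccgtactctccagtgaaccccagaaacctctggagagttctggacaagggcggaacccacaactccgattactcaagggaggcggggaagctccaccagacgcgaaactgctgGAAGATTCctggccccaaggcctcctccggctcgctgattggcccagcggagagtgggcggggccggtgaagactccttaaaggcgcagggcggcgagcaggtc
Hspa1b: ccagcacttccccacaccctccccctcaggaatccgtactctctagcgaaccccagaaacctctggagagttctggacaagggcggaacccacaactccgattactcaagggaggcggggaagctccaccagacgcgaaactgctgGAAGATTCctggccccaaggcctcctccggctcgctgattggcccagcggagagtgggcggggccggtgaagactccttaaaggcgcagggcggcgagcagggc
These windows are identical at 247 of 250 bases (98.8%), and each holds the motif once, starting 104 bases before the gene's start. Each gene was counted once, if any of its promoters of that length held the motif on either strand. GAANNTTC was in 6 of 16 heat shock genes with a promoter (37.5%; Hspa1a, Hspa1b, Dnaja1, Hspb1, Hspd1 and Hspe1) and in 7.73% of all 27025 genes with a promoter. A longer form with 3 such units, which overlaps the first, was in 2 of 16 (12.5%; Hspd1 and Hspe1) and in 0.514% of all. The E-box CACGTG, which clock factors bind, was in 2 of 16 (12.5%; Hsph1 and Hspd1) and in 6.86% of all. A match describes the sequence only.

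Hspa1b was 29.6 to 166 CPM in WT with a median of 35.9, and 8.49, 5.92, 9.09 and 7.42 CPM in Ripk3KO. Every Ripk3KO value lay below every WT value, also without the highest WT library, replicate 3. The log2 difference was -3.05 (SE 0.69, adjusted p 0.0316). Hspa1a ran from 4.88 through 5.93 to 38.8 CPM in WT and was 1.83, 2.19, 1.84 and 1.88 CPM in Ripk3KO, a log2 difference of -2.59 (SE 0.59, adjusted p 0.0361). Dnajb1, the HSP40 co-chaperone of HSP70, was 34.1 to 75.7 CPM in WT with a median of 40.9 and 23.1, 19.7, 17.9 and 16.6 CPM in Ripk3KO, again without overlap (log2 difference -1.27, SE 0.26, adjusted p 0.0149). Hsph1, an HSP70 exchange factor, had a log2 difference of -1.67 but an adjusted p of 0.0585, and the constitutive Hspa8 one of -0.84 with 0.0715. The Hspa8 values did not overlap, as at 5.36% of all genes tested, with 1192 CPM or more in WT and 803.9, 917, 798.9 and 669.7 CPM in Ripk3KO. Summed over the list, WT held 3548 to 5284 CPM and Ripk3KO 2680 to 3239. Outside this list, the HSP40 protein gene Dnajb2 also fell (-0.59, adjusted p 0.0361).

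These calls depended on single libraries. No heat shock gene was called without WT replicate 3 or without Ripk3KO replicate 2, 3 or 5, and Dnajb1 alone was called without WT replicate 2 or Ripk3KO replicate 1. Without WT replicate 3, the library with the highest list mean and the outlying clock ratio, Hspa1a had a log2 difference of -1.70 (adjusted p 0.204), and without both libraries that stood apart Hspa1b had one of -2.58 (adjusted p 0.194). With only the 10 libraries fitted 8 heat shock genes were lower (Hspa1a, Hspa1b, Hspa8, Hsph1, Dnajb1, Bag3, Hsp90aa1 and Stip1), against 0.915% of all genes in that fit, and the same 8 when both libraries were also left out, against 2.41%. The part of clock phase in these values was not tested beyond a clock-ratio covariate, with which 2 of the 21 were called.

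Of 26 genes of the unfolded protein and integrated stress responses tested, 3 fell (Atf4, Ddit3 and Bhlha15) and none rose, again beside 0.168% of all genes. In this list 23 were fitted below WT, and the median log2 difference was -0.56. The libraries overlapped, with list sums of 2539 to 4967 CPM in WT and 2598 to 2992 CPM in Ripk3KO, and WT replicate 4 had a list mean of -0.65 relative to WT on the log2 scale, below Ripk3KO replicates 1 (-0.48) and 3 (-0.50). Atf4 (ENSMUSG00000042406), the transcription factor at the centre of the integrated stress response, ran from 141 through 159 to 191 CPM in WT and was 87.6, 98.3, 73.7 and 77.4 CPM in Ripk3KO. The log2 difference was -0.94 (SE 0.19, adjusted p 0.0144). Ddit3 (ENSMUSG00000025408), which encodes CHOP, a pro-apoptotic factor induced by ATF4, was 26.0 to 64.3 CPM in WT with a median of 39.0, and 14.3, 11.0, 15.6 and 11.1 CPM in Ripk3KO (log2 difference -1.66, SE 0.34, adjusted p 0.0144). All Atf4 and Ddit3 values of Ripk3KO lay below those of WT. Bhlha15, a factor of secretory cells, was low in both groups (1.52 to 8.26 CPM in WT, 0.11 to 0.999 in Ripk3KO) with a log2 difference of -3.26 (adjusted p 0.0423). Fgf21 (ENSMUSG00000030827), a fasting and stress hormone that ATF4 and PPARα both induce, ran from 15.6 through 53.6 to 78.7 CPM in WT and was 8.99, 11.8, 10.6 and 7.42 CPM in Ripk3KO, a log2 difference of -2.36 (SE 0.44, adjusted p 0.0058). Syvn1, the ubiquitin ligase HRD1 of ER-associated degradation, fell from a WT median of 196 CPM to 71.1, 63.9, 66.7 and 48.6 CPM (-1.55, adjusted p 0.0449).

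Fgf21 and Syvn1 are outside the list of 26, whose members other than the 3 called stayed above the threshold. Chac1, a glutathione-degrading ATF4 target, was 3.46 to 38.3 CPM in WT, highest in replicate 3, and 3.06 to 3.83 CPM in Ripk3KO, which overlapped (-2.09, adjusted p 0.0512). Creld2 and Manf, secreted ER stress proteins, were called in the fit of the 10 libraries, where 6 genes were lower (Eif2ak3, Atf4, Ddit3, Bhlha15, Creld2 and Manf) against 0.915% of all genes. Without Ripk3KO replicate 5 no gene of the list was called, and Atf4 and Ddit3 had adjusted p of 0.0954 and 0.101 there. Without both libraries that stood apart the adjusted p was 0.0762 for Atf4, Ddit3 and Fgf21, while the log2 differences were -0.99, -1.71 and -2.20. Of 23 genes with a promoter, 6 (26.1%; Hspa5, Hsp90b1, Dnajc3, Pdia6, Creld2 and Derl3) held the ER stress response element there and 4 (17.4%; Atf3, Herpud1, Asns and Chac1) held TGATGNAA, a core that ATF4 heterodimers bind. Of all genes with a promoter 0.13% and 3.91% did. These windows (GRCm38.p6, plus strand, chr15:88819480-88819579 for Creld2 and chr2:119351009-119351108 for Chac1) show one of each, with the match in capitals, starting 126 and 193 bases before the gene's start and read on the opposite strand.
Creld2: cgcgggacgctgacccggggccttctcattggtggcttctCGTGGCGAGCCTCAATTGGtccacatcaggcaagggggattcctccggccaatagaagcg
Chac1: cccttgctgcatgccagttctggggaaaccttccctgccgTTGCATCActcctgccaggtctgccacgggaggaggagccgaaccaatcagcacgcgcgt

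**Figure D2:**
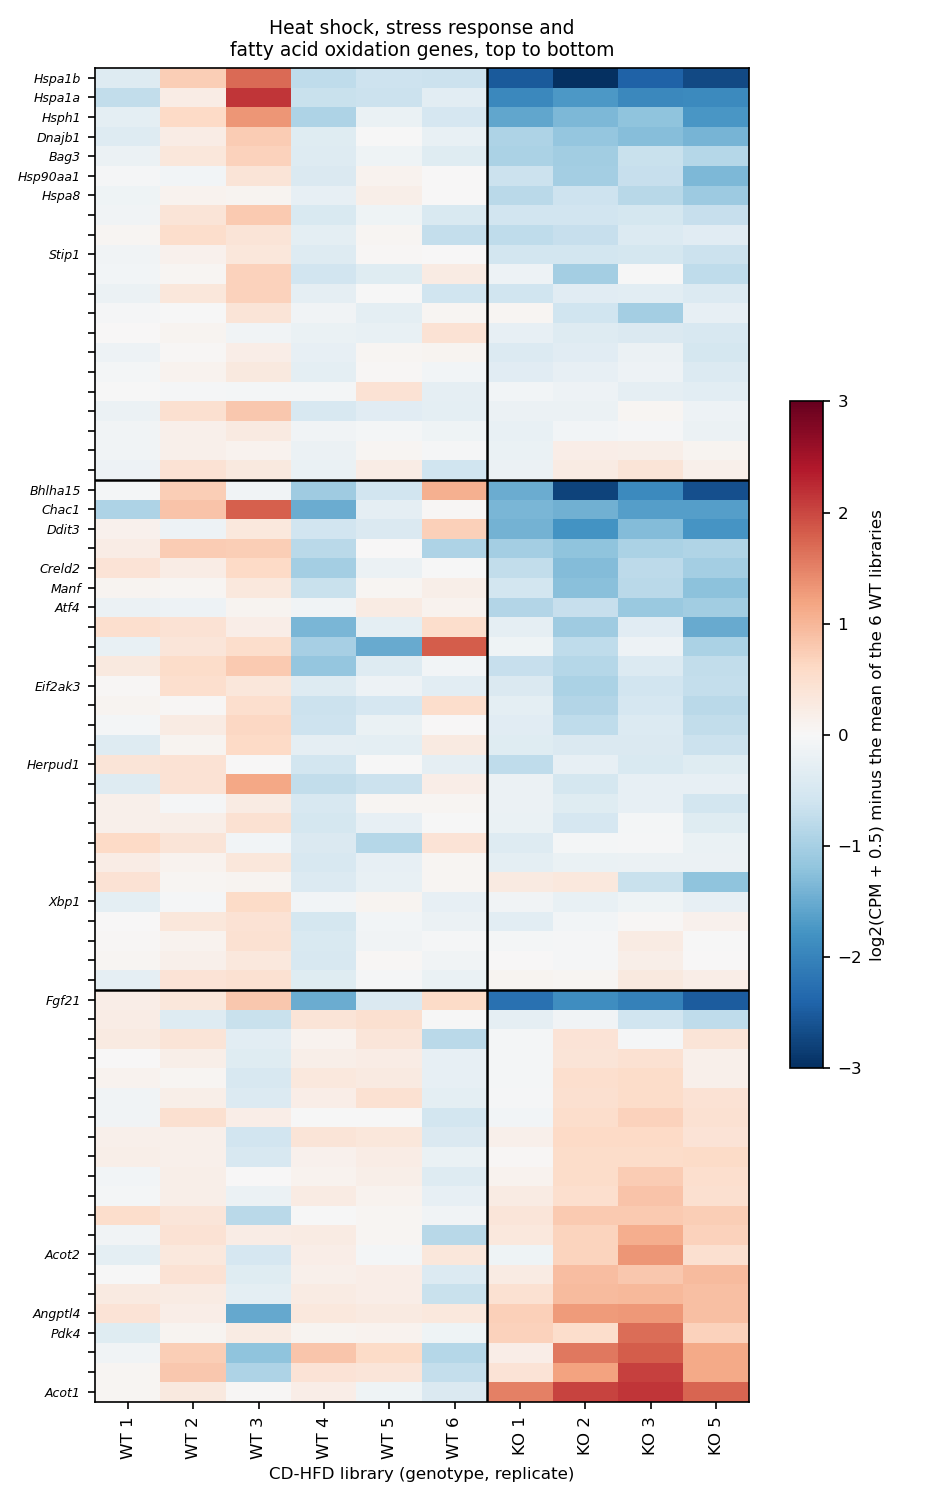
Heat shock, unfolded protein and integrated stress, and fatty acid oxidation genes (rows) in the 10 libraries on CD-HFD (columns), coloured by log2(CPM + 0.5) minus the WT mean from -3 to 3, with names for some of the genes discussed in the text. The 4 Ripk3KO columns are mostly below the WT mean in both stress lists and above it in the oxidation list, with WT replicate 3 highest in the stress lists.

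Sterol synthesis genes were lower at 2 of 18 members tested, against 0.168% of all genes called lower, with 15 fitted below WT and a median of -0.40 against 0.00476 over all genes. The list sums overlapped (1149 to 2426 CPM in WT, 1583 to 1667 CPM in Ripk3KO), and the list mean of WT replicate 6 (-0.60 relative to WT on the log2 scale) was below those of all 4 Ripk3KO libraries (-0.52 to -0.28). Mvd, mevalonate diphosphate decarboxylase, ran from 22.7 through 23.8 to 27.7 CPM in WT and was 12.99, 13.7, 11.7 and 8.53 CPM in Ripk3KO. The groups did not overlap, and the log2 difference was -1.07 (adjusted p 0.0449). Fdps, farnesyl diphosphate synthase, had a log2 difference of -1.41 and an adjusted p of 0.172. Mvd was lost without any 1 of the 10 libraries (adjusted p 0.261 at most, without Ripk3KO replicate 5).

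Genes of fatty acid oxidation lay mostly above WT. Of 21 oxidation genes and PPARα targets tested, none was called higher and 1, Fgf21, was lower (0.209% and 0.168% of all genes), while 19 were fitted above WT and the median log2 difference was 0.54 against 0.00476 over all genes. Acot1, an acyl-CoA thioesterase whose reads may be divided with its near copy Acot2, was 2.06 to 3.78 CPM in WT and 9.49, 13.7, 14.9 and 11.1 CPM in Ripk3KO. The groups did not overlap, as at 5.36% of all genes tested, but the adjusted p was 0.107 (log2 difference 2.03). Angptl4, a secreted inhibitor of lipoprotein lipase, was 37.97 to 148 CPM in WT and 182, 267, 272 and 206 CPM in Ripk3KO, again without overlap (0.95, adjusted p 0.191). The fit of the 10 libraries called Pdk4 and Acot1 higher (0.9% of all genes in that fit). Without both libraries that stood apart that fit called 9 genes of the list higher, against 2.41% of all genes (among them Ppara, Cpt1a, Cyp4a10, Cyp4a14, Pdk4, Acot1, Vnn1 and Angptl4). Cyp4a10 and Cyp4a14 are close copies, so their division of reads is uncertain. The mean over the list relative to WT was 0.12, 0.63, 0.78 and 0.46 on the log2 scale in Ripk3KO and ran from -0.36 to 0.28 in WT.

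In the choline and the lipid droplet lists 1 gene each of 23 was called, both higher (Gpcpd1 and Pnpla2), against 0.209% of all genes. Gpcpd1 (ENSMUSG00000027346), which cleaves glycerophosphocholine and so releases choline, was 37.7 to 74.9 CPM in WT with a median of 63.3, and 184.8, 217, 190.6 and 243 CPM in Ripk3KO. It rose by 1.78 on the log2 scale (SE 0.26, adjusted p 9.29e-05), and it was called in every leave-one-out fit (adjusted p 0.00125 at most) and without both libraries that stood apart. It was the called member of the 23 choline and phosphatidylcholine genes tested, of which 15 were fitted higher (median 0.15). Chpt1, which makes phosphatidylcholine from CDP-choline, and Etnk2, an ethanolamine kinase, had log2 differences of 0.63 and 0.71 with adjusted p of 0.247 and 0.204. Pnpla2, the triglyceride lipase ATGL, ran from 80.0 through 101 to 116 CPM in WT and was 160.2, 218, 212 and 196 CPM in Ripk3KO (0.97, SE 0.20, adjusted p 0.0144). Slc22a5, the carnitine carrier OCTN2, was 13.4 to 27.1 CPM in WT and 38.8, 61.0, 51.8 and 51.9 CPM in Ripk3KO (1.26, SE 0.29, adjusted p 0.0415). Slc22a5 and the genes that follow were named by the size of their rise. Pank1, which starts coenzyme A synthesis, Pdp2, which activates pyruvate dehydrogenase, and Prodh, which oxidises proline, rose by 0.94, 0.98 and 0.84 (adjusted p 0.0342, 0.0369 and 0.0249). None of Pank1, Slc22a5 and Pnpla2 was called when both libraries that stood apart were left out (adjusted p 0.0864, 0.154 and 0.0762), though the differences were 0.98, 1.22 and 0.95. Plin5, which couples lipid droplets to mitochondria, had a log2 difference of 1.0 with an adjusted p of 0.172.

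The remaining named rises were spread over other roles. Scara5 (ENSMUSG00000022032), a receptor that takes up ferritin, was 5.52 to 13.4 CPM in WT and 36.0, 41.3, 38.3 and 34.5 CPM in Ripk3KO (2.02, SE 0.37, adjusted p 0.00356). It was the called one of 19 iron genes, against 0.209% of all genes called higher. Retreg1, the receptor FAM134B that feeds ER membrane to autophagy, was 42.4 to 54.4 CPM in WT and 89.2, 107, 110.1 and 109.8 CPM in Ripk3KO (1.08, adjusted p 0.0144). Map1lc3b, the autophagosome protein LC3B, was 87.0 to 109 CPM in WT and 132, 146, 149 and 156 CPM in Ripk3KO (0.61, SE 0.13, adjusted p 0.0144). Fbxo31, an F-box ubiquitin ligase subunit, rose by 1.39 (adjusted p 0.00875), Slc43a1, an amino acid carrier, by 1.10 (0.0249), Myom3, a sarcomere protein, by 1.89 (0.0134) and Ccnf, cyclin F, by 0.87 (0.0303). Crybg2 and Ctif rose by 1.07 (0.0249) and 1.06 (0.0423). Among named falls, Banp, a DNA-binding protein, and Zfp9, a zinc finger protein, fell by 1.48 (0.0157) and 1.45 (0.0423). All p-values here are adjusted, from the edgeR quasi-likelihood test, and Fbxo31 and Scara5 kept theirs under 0.05 in all 10 leave-one-out fits.

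Several calls carried reservations. Lars2, Mir6236, ENSMUSG00002075524 and ENSMUSG00002076161 were called higher, a call that rested on Ripk3KO replicate 1, in which they stood at 10770, 1233, 26.0 and 59.9 CPM. In the other 3 Ripk3KO libraries Lars2 was 119.9, 50.4 and 166 CPM, within the WT range of 67.5 to 225 or below it, and without replicate 1 its log2 difference was 0.02. Gm3375, a predicted gene that may share reads with copies elsewhere in the genome, was 0.327 to 1.75 CPM in WT and 37.5, 27.0, 32.7 and 25.3 CPM in Ripk3KO (4.97, adjusted p 2.68e-14), and its level is uncertain for that reason. Calls that the naming rule leaves to 1 sentence were Gm43305, Gm14201, Tmem39a, Zmynd19, Stx5a, Ampd2 and Ufl1 (lower) and Gm4737, Gm31583, Gm15889, Gm11695, E030018B13Rik, Pkdrej, Tubgcp5, Zfp746 and Rffl (higher).

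Genes near Ripk3 on chromosome 14 made up a share of the calls that was above the background. Gene order was read from an annotation of another build, so only ranks are given. Counting 50 tested genes in each direction from Ripk3, 6 of 100 were called (6.0%), against 45 of 14323 (0.314%) on other chromosomes, and none of the nearest 25 in each direction. Among them were Cebpe, Psmb5, Ppp1r3e and Cdh24 (lower) and Homez (higher), and Gm43305 and Scara5 lay 54 genes before and 77 after. Cebpe (ENSMUSG00000052435), a granulocyte transcription factor, was 8.77 to 12.3 CPM in WT and 0.499, 0.11, 0.0874 and 0.0853 CPM in Ripk3KO, at least 21.4-fold lower. It was also the called member of the 9 monocyte and neutrophil genes tested, against 0.168% of all genes called lower. In that list 6 were fitted higher, and the median log2 difference was 0.19. The list sums overlapped (351 to 649 CPM in WT, 440 to 613 CPM in Ripk3KO). Psmb5 (ENSMUSG00000022193), the chymotrypsin-like proteasome subunit, ran from 65.1 through 86.3 to 100.1 CPM in WT and was 35.5, 28.4, 26.7 and 25.2 CPM in Ripk3KO (-1.56, SE 0.18, adjusted p 2.32e-07). Ppp1r3e, a glycogen-targeting phosphatase subunit, fell by 1.76 (adjusted p 0.0249), Cdh24, a cadherin, fell by 1.62 (0.0449), and Homez, a homeobox gene, rose by 1.38 (0.00875). Cebpe and Psmb5 were also called lower on the other diets, with log2 differences of -5.53 and -1.02 on CD-LFD and of -3.80 and -1.25 on the control diet, whereas Homez was at -0.08 and -0.10 there and was not called. On those diets 5 of the same 100 genes (5.0%) and 12 of them (12.0%) were called, against 1.05% and 4.41% on other chromosomes. The effect of losing Ripk3 and that of sequence carried with the targeted locus cannot be told apart in this design.

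**Figure D3:**
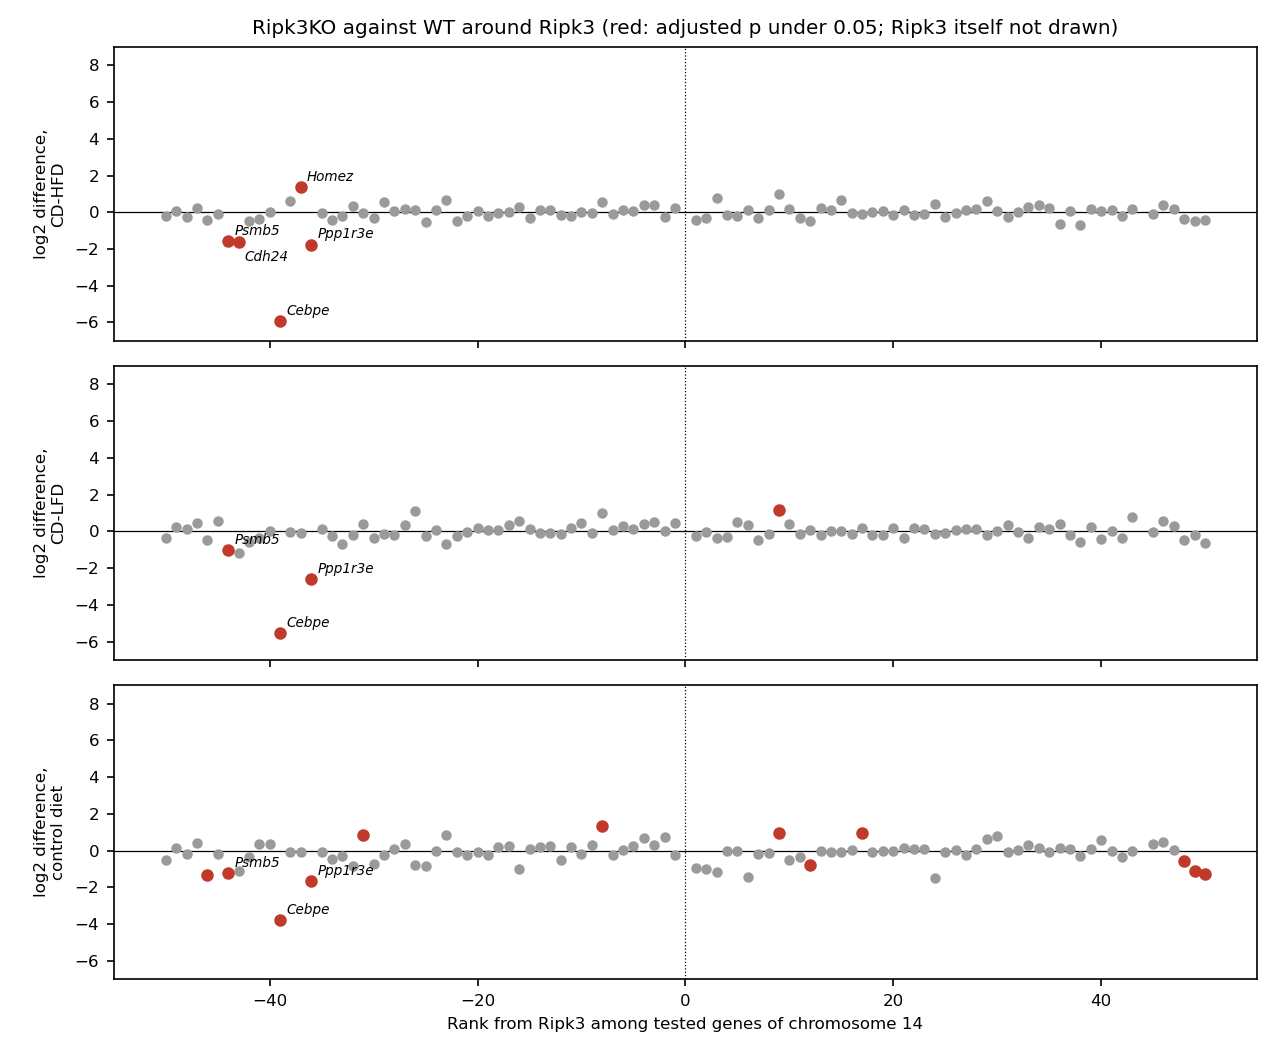
Log2 difference of Ripk3KO from WT for the nearest 50 tested genes on each side, by rank along chromosome 14, on each diet. Each point is a gene, red points have an adjusted p under 0.05, and 1 gene is not drawn. Names are given for genes named in the text, and the called genes drawn for CD-HFD lie 36 or more genes from Ripk3.

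The same 56 genes were then read in mice on the other diets. Those libraries form neither group compared on CD-HFD, but they entered the same fit, with its count filter and its estimate of the spread. The 56 include Ripk3, whose loss the genotype fixes on every diet, and its called chromosome 14 neighbours described above. On CD-LFD 164 genes (1.1%) were called over the genome, and 23 of the 56 were called there in the same direction (13 of 31 higher and 10 of 25 lower), none in the opposite one, and 49 shared the sign. On the control diet 665 genes (4.47%) were called, 15 of the 56 the same way (10 and 5) and none oppositely, and 36 shared the sign. Without Ripk3KO control replicate 5, which held Ripk3, 254 genes were called higher and 214 lower (3.15%), and 14 of the 56 the same way (8 and 6). Among genes called again on CD-LFD were Gpcpd1 (2.01, adjusted p 3.03e-05), Pnpla2 (1.28, 0.000658), Slc22a5 (1.92, 0.00055), Fgf21 (-3.01, 0.000732), Atf4 (-1.12, 0.00282), Ddit3 (-1.44, 0.0474), Scara5 (2.46, 0.000325) and Map1lc3b (0.64, 0.00822), all by the edgeR quasi-likelihood test. Gpcpd1 averaged 49.7 ± 4.93 CPM (SD, n = 6) in WT and 200.4 ± 73.8 CPM (SD, n = 3) in Ripk3KO on that diet. On the control diet Gpcpd1 was 95.7 ± 37.4 CPM (SD, n = 6) and 127.3 ± 51.4 CPM (SD, n = 6), a log2 difference of 0.41 (adjusted p 0.344). These Gpcpd1 values on control include Ripk3KO replicate 5, the library that held Ripk3. The clock ratio on CD-LFD ran from -2.63 to -0.27 in WT and from -7.01 to -5.92 in Ripk3KO, and with a clock-ratio covariate 6 of the 56 were called there in the same direction. Ripk3KO replicate 3 on CD-LFD held Xist (144 counts) beside the Y-linked Ddx3y (614 counts). In the 10 libraries on CD-HFD Xist was 1 to 6 and Ddx3y 231 to 476 counts. In libraries labelled Mlkl knockout on CD-HFD (3, compared with the same WT libraries) none of the 56 was called, but neither was any of the 14862 genes. Without the library labelled replicate 1 none of the 56 and 1 of all genes was called. With all 3 libraries the log2 differences were -2.16 for Fgf21, -0.92 for Atf4, 0.94 for Gpcpd1 and 1.75 for Scara5 (adjusted p 0.294, 0.294, 0.568 and 0.294).

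**Figure D4:**
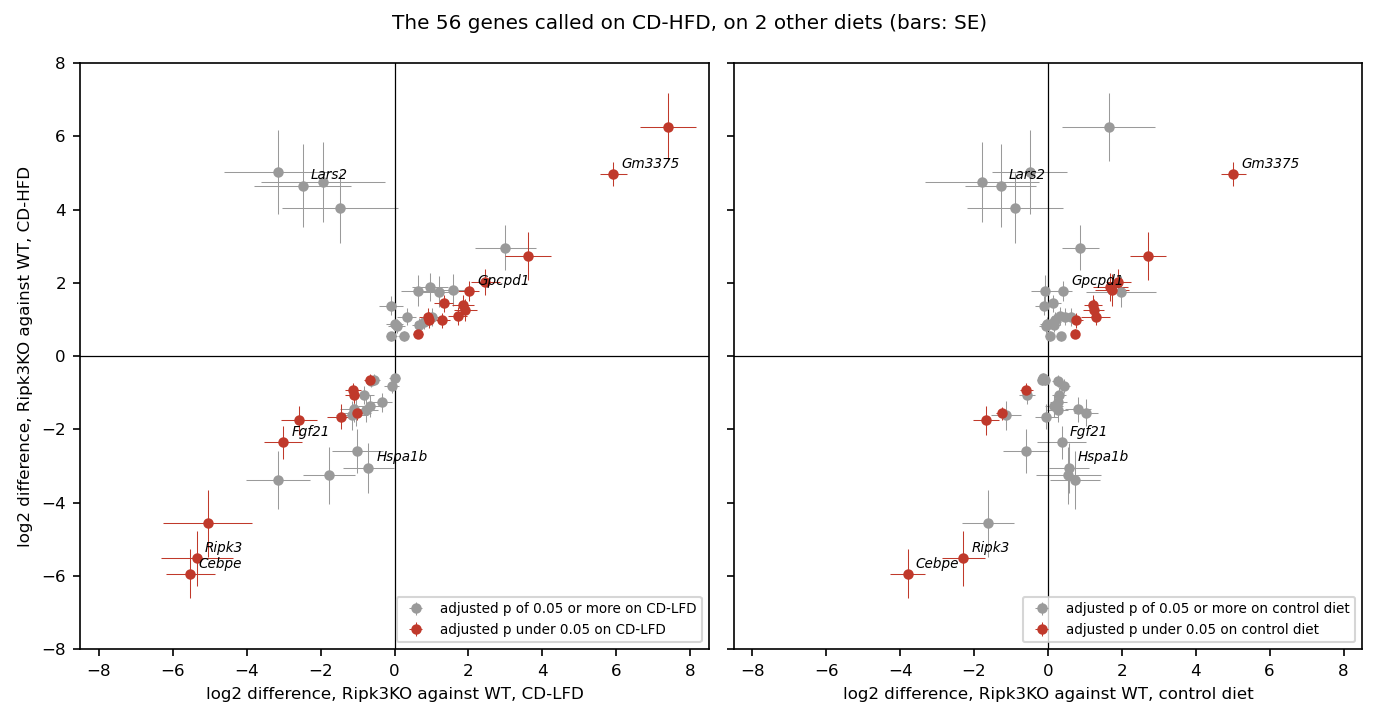
The 56 genes called on CD-HFD: log2 difference of Ripk3KO from WT on CD-HFD (vertical) against that on CD-LFD and on the control diet (horizontal), with SE bars. Red points have an adjusted p under 0.05 on the diet of the horizontal axis, 23 on CD-LFD and 15 on the control diet.

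At some heat shock genes the genotype difference on CD-HFD itself differed from that on the control diet. Hspa1b had log2 differences of -0.71 (adjusted p 0.75) on CD-LFD and 0.57 (0.589) on the control diet, and the change in its genotype difference from control to CD-HFD was -3.62 (edgeR interaction test, adjusted p 0.0356). The interaction was called at 71 genes (0.478%), 51 lower and 20 higher, and included 5 heat shock genes, all lower (Hspa1b, Dnajb1, Hsph1, Hspa8 and Stip1), and 5 of the unfolded protein list, all lower (Chac1, Creld2, Herpud1, Manf and Xbp1). On the control diet itself 4 heat shock genes and 9 unfolded protein genes were called higher in Ripk3KO and 1 unfolded protein gene lower, against 2.25% of all genes higher and 2.23% lower on that diet. The list medians there were 0.55 and 0.55. Leaving out the knockout library of that diet that held Ripk3 made these counts 4, 7 and 1, with medians of 0.60 and 0.66. Over all 14862 genes that fit called 254 higher and 214 lower (3.15%). The interaction was then called at 5 heat shock and 4 unfolded protein genes, and at 59 genes in all. The clock ratio on the control diet ran from -7.36 to 2.62 in WT, above 0 in 4 of 6 libraries, and from -6.93 to -5.46 in Ripk3KO. WT control replicate 6 had 13.4% mitochondrial counts, and without it the interaction was again called at 5 and 4 genes of these lists, and at 77 genes in all. Beyond a clock-ratio covariate and leaving out each library, the part of these in the interaction was not tested. On CD-LFD no heat shock gene was called, 1 unfolded protein gene was called higher and 2 lower (0.794% and 0.31% of all genes), and the medians were 0.06 and -0.21. With the clock covariate the interaction was called at 2 genes of each list (37 over all genes), and with only the 4 groups fitted at 1 of each (20 over all genes). The median interactions of the lists were -1.12 and -1.29, and stayed at -1.04 and -1.29 with the covariate and -1.15 and -1.31 with only the 4 groups. Without Ripk3KO CD-HFD replicate 5 the interaction was called at 1 gene of each list, and without Ripk3KO control replicate 1 at 9 heat shock and 10 unfolded protein genes, the extremes over left-out libraries. Over all genes these fits called it at 17 and 167. Syvn1 had an interaction of -2.58 (adjusted p 0.00674), with a difference of 1.03 on the control diet. The largest interactions were in acute-phase genes, Saa2 (-7.67, adjusted p 0.0023), Lcn2 (-6.83, 0.00289) and Saa1 (-6.71, 0.0021), which are near copies in the case of Saa1 and Saa2. On the control diet Saa2 ran from 6.41 to 9038 CPM in Ripk3KO and from 4.64 to 39.6 CPM in WT, and on CD-HFD it was 55.8 to 114 CPM in WT. Among positive ones were Rfx4 (3.37, 0.0219), Rnf125 (2.70, 0.0219) and Lars2 (5.94, 0.0469). With the clock covariate the interactions of Rfx4 and Rnf125 were 1.76 and 1.29 (adjusted p 0.462 and 0.312), and without Ripk3KO CD-HFD replicate 1 that of Lars2 was 1.31 (0.813). That of Hspa1b had an adjusted p above 0.05 in 10 of 22 leave-one-out fits, up to 0.102 without Ripk3KO control replicate 4, and of 0.128 without both libraries that stood apart. Against CD-LFD no interaction was called by edgeR over all libraries with the filter, with 541 genes under an unadjusted 0.05. Without the filter edgeR called 4 and with only the groups compared 1, DESeq2 called 1 and limma-voom 7.

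Genes of inflammation, fibrosis and cell death other than Ripk3 showed no calls in most lists, and no p that missed the threshold shows equality. Of 24 necroptosis and death receptor genes tested, Ripk3 was the only one called. Zbp1, a nucleic acid sensor upstream of RIPK3, was 27.3 to 54.1 CPM in WT and 30.3 to 41.4 CPM in Ripk3KO (-0.04, adjusted p 0.986), and Casp8, which restrains necroptosis, differed by 0.06 (95% interval -0.25 to 0.36). No gene was called among 19 inflammasome, 19 lipid-associated macrophage, 23 chemokine, 19 cytokine and NF-κB target, 20 interferon, 23 fibrosis, 21 proliferation or 20 tumour-associated genes, near the 0.377% called over all genes, and their medians ran from -0.16 to 0.15. Among those with the smallest p, Col6a3, a matrix collagen, was at -0.68 (95% interval -1.36 to 0.01), Myc, a proliferation factor, at -1.05 (-2.15 to 0.06) and Mcm2, a replication helicase subunit, at -0.72 (-1.29 to -0.15). Kupffer cell genes were also uncalled, with Cd163, a haemoglobin scavenger, at 1.80 (-0.05 to 3.65). In bulk tissue fewer cells of a type and less RNA per cell cannot be told apart.

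Genes that the diets changed in groups other than the 4 Ripk3KO and 6 WT libraries were read as sets, though those libraries shared the filter and the estimate of the spread. The values stand beside a median of 0.00476 and 0.377% called over all genes. Of 3066 genes higher at least 2-fold in libraries labelled Mlkl knockout on CD-HFD than on control, the median Ripk3KO difference on CD-HFD was -0.03, with 2 called higher and 1 lower (0.0979%), and of 960 lower ones it was -0.02, with 3 called higher and 5 lower (0.833%). Without the library labelled MlklKO CD-HFD replicate 1 these sets held 3092 and 1124 genes, with medians of -0.03 and -0.0095. Of 1352 genes higher in WT on CD-LFD than on control the median was -0.08 (41.0% fitted higher), and of 572 lower ones 0.19 (64.9% fitted higher, 7 called higher, 1.22%). Without a fold minimum that last set held 2077 genes, of which 72.8% were fitted higher. In the Mlkl knockout sets of 3066 and 960 genes 46.15% and 47.71% were fitted higher. Over all genes tested 7524 of 14862 were.

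**Figure D5:**
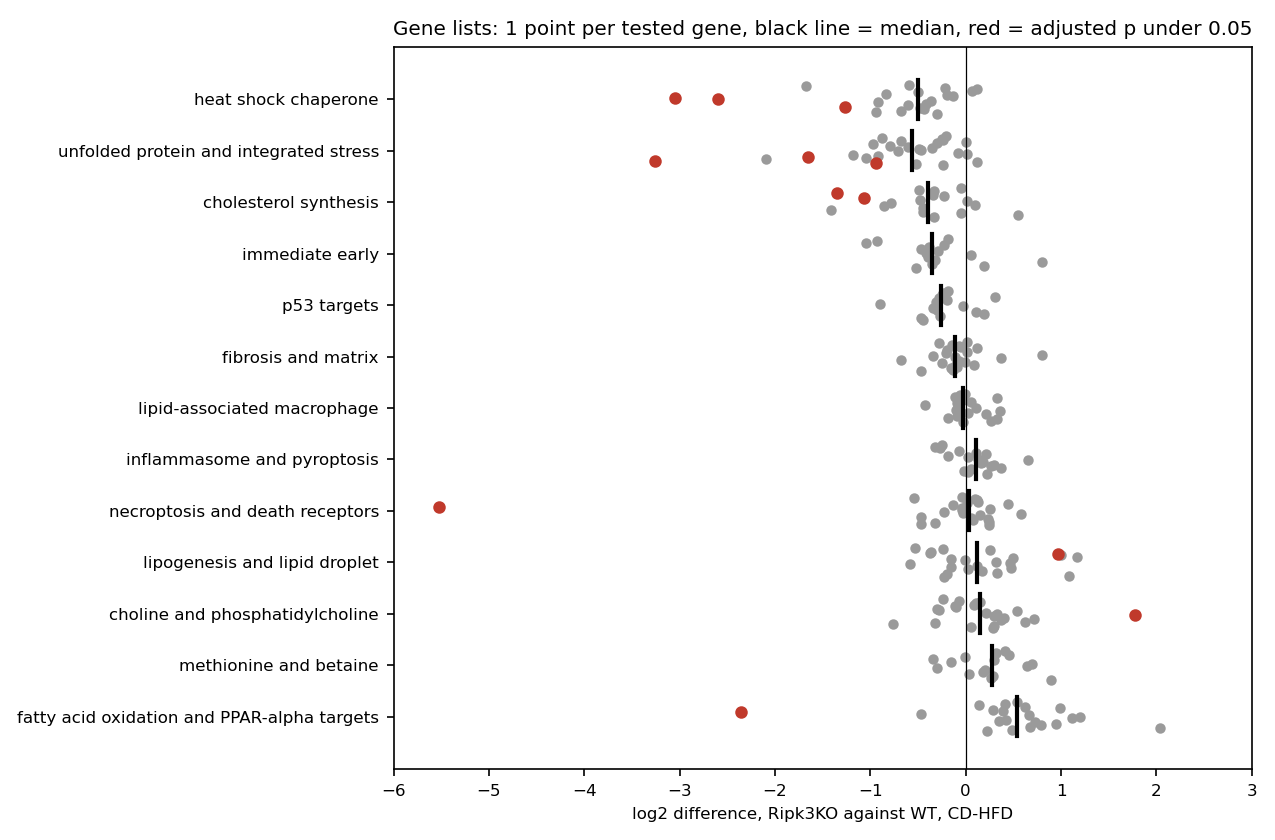
Log2 difference of Ripk3KO from WT on CD-HFD for each gene of 13 lists, 1 point per gene, with the list's median as a line and called genes in red. The heat shock and unfolded protein medians lie at -0.50 and -0.56, and the fatty acid oxidation median at 0.54.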

How the data were processed

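The authors deposited raw read counts per Ensembl gene, 1 column for each of 44 libraries from mouse liver and 35249 genes. Libraries were made from total RNA with a strand-specific kit, per the labels' protocols. The submitters' processing notes name FastQC, STAR, HTSeq, edgeR and limma, and the build GRCm39 (mm39), without versions. Symbols came from the reference gene table (34373 identifiers matched, 876 did not and held 0.0838% of counts). Neighbours of Ripk3 were read from gene order in another annotation, without coordinates.

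Genes were kept by filterByExpr (minimum count 10, 9 groups), which left 14862 with 99.8% of counts, and libraries were scaled by TMM (factors 0.799 to 1.34). The edgeR (4.0.16, R 4.3.3) quasi-likelihood F test was fitted over all 44 libraries with 1 mean per group, and p-values were adjusted by Benjamini-Hochberg over all genes tested at 0.05. Intervals are 95%, and CPM are counts scaled to library size and TMM. A floor of 3 counts per library covers counting error only, since reads carry no molecular identifiers. The tests were checked on simulated data. Named genes were Ripk3, Mlkl, and the 15 largest rises and 15 largest falls among called genes with a mean log2 CPM of at least 0, no overlap between groups and a symbol other than a predicted-gene name. Named too were called members and the 3 smallest p-values of each gene list, any member of the heat shock, choline, necroptosis and clock lists, and the 3 largest interactions in each direction. Other genes named (Alb, Casp8, Zbp1 and those given as examples of a role) illustrate a list and were chosen after their values were seen. A few genes counted here are not reported by name. The comparison, members and lists were chosen with earlier results of these data known.

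Alternatives were DESeq2 (1.42.0), limma-voom with sample weights (limma 3.58.1), scaling by RLE or by library size alone, testing without the filter, fitting only the groups compared, robust dispersion, a block for the replicate number, a clock-ratio covariate and leaving out each library. Leaving out both libraries that stood apart, and MlklKO CD-HFD replicate 1, was added after the data had been seen. The labels name no litter, batch or day, so p-values measure the spread between these mice. Replicate numbers did not pair the samples, since the correlations of same-numbered deviations were -0.019, 0.039, 0.02 and -0.15. No pair of libraries within a group was a duplicate (chi-square per degree of freedom 6.59 to 43.7).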

Additional observations from a re-analysis of the deposited data

Results flagged for a closer look

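In 131 groups of 4 or 6 values from 66 genes on CD-HFD, 15 held a highest or lowest value set apart by most of the group's range. Chance gives such a value in about 1 in 20 groups, and the part of chance was not tested. In Ripk3KO replicate 1, Cebpe was 0.499, Gm43305 6.49, ENSMUSG00002075524 26.0 and ENSMUSG00002076161 59.9 CPM, each high for its group. Low values in the same library were Zfp746 at 25.8, Retreg1 at 89.2 and Gm11695 at 1.33 CPM. Hspa1a stood high at 38.8 CPM in WT replicate 3 and at 2.19 CPM in Ripk3KO replicate 2. Lars2 was high at 225 CPM in WT replicate 5 and Mlkl at 20.5 CPM in Ripk3KO replicate 3. Low WT values were Zmynd19 at 9.35 CPM in replicate 1, Pank1 at 47.0 CPM in replicate 6, Manf at 80.2 CPM in replicate 4 and Angptl4 at 37.97 CPM in replicate 3.

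The Ripk3KO minus WT difference on CD-HFD was itself different from that on the control diet for 14 of these genes, by the edgeR interaction test. Lower on CD-HFD by log2 were Chac1 (-4.04), Hspa1b (-3.62), Syvn1 (-2.58), Hsph1 (-2.40), Zfp9 (-2.27), Manf (-1.83), Banp (-1.74), Hspa8 (-1.59), Dnajb1 (-1.55), Tmem39a (-1.37), Zmynd19 (-1.23) and Stx5a (-0.94). Higher were Gm4737 (1.30) and Lars2 (5.94), the latter resting on Ripk3KO replicate 1.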

How the results depend on the processing

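The number of calls on CD-HFD, 56, changed with the setting. DESeq2 called 126, limma-voom with sample weights 1162, and the fit of only the compared groups 252, while RLE size factors gave 49, no filter 68 and the robust fit 53. With library size only the count was 64, split 22 higher and 42 lower against 31 and 25 under TMM, and the median of all genes moved from 0.00476 to -0.09. Leaving out 1 library gave 15 to 50 calls. Both libraries that stood apart left out gave 9, and 675 with only the compared groups fitted. The interaction with the control diet (71 calls) became 207 with DESeq2, 1048 with limma-voom, 20 with only the groups compared, 37 with the clock covariate, 31 without both libraries and 17 to 167 when 1 library was left out. That with CD-LFD (0 calls) became 4 without a filter, 1 with DESeq2, 7 with limma-voom and 1 with only the groups compared. Of the 56, 23 were called the same way on CD-LFD, and this became 6 with the clock covariate and 10 to 23 over left-out libraries (10 without Ripk3KO CD-LFD replicate 2). On the control diet the 15 became 6 with only the groups compared and 6 with the clock covariate. Calls within the gene lists (14) became 69 with limma-voom, 33 with only the groups compared, 4 without both libraries, 67 with both changes and 4 to 15 over left-out libraries. The 6 near Ripk3 became 13 with limma-voom and 3 without both libraries. The median over genes lower on CD-HFD in Mlkl knockouts moved from -0.02 to -0.16 with library size only. The cause of these changes was not tested.

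Without both libraries that stood apart the log2 difference of ENSMUSG00002075524 was -0.13, of Lars2 -0.14 (-0.15 with only the groups compared), of ENSMUSG00002076161 -0.78 and of Mir6236 -0.088 (-0.10). ENSMUSG00002076161 was -0.52 without Ripk3KO replicate 1 and at most 5.17 over left-out libraries. Mlkl, which was not called, ranged from -0.19 to 0.021 over left-out libraries. With the replicate number as a block 43 genes were called, and 71, 0, 21, 14, 12 and 5 for the interaction with control, that with CD-LFD, the same-way calls on CD-LFD and control, the lists and the neighbours. Since the numbers did not pair the mice, the block is given as a setting only. In all, 8 of the 56 genes were called under every setting and every left-out library. Among them were Cebpe, Ripk3, Psmb5, Gm4737, Gpcpd1, Scara5 and Gm3375.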
